A study of Mus musculus with 115 samples.

Results

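The insulin-like growth factor (IGF) binding proteins 1 to 7 were read by 10 probes, those whose symbol in the probe tables of liver and of inguinal fat is Igfbp1, Igfbp2, Igfbp3, Igfbp4, Igfbp5, Igfbp6 or Igfbp7. They are 7 of the 18120 gene symbols on the arrays, taken by name, with earlier results of these data known. Igfbp2, Igfbp4 and Igfbp7 had more than 1 probe. RNA of 60 livers and 55 inguinal fat pads was hybridised to Illumina bead arrays, and levels below are normalised log2 intensities, so that 1 unit is a doubling of the background-corrected signal with its offset.

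The mice, on a C57BL/6J background, came from a cross that separates gonad type from sex chromosomes: the Y chromosome (Y-) lacks Sry, the testis-determining gene, and some mice carry Sry as a transgene on an autosome. XX and XY- mice had no Sry and developed ovaries (the ovary lines below), and XXSry and XY-Sry mice carried the transgene and developed testes (the testis lines). Every mouse of every group lost its gonads at 75 days of age and received a Silastic capsule at once. The capsule was blank, held testosterone (5 mM) or held estradiol (50 µg), and tissues were collected 3 weeks later. The 12 groups of genotype and capsule had 5 livers each. In fat they had 5 arrays each apart from blank XX (3), testosterone XX (4), estradiol XXSry (4) and blank XY-Sry (4). A difference between the ovary and testis lines was therefore measured without gonads in place, and the lines differed in the gonads they had before surgery and in the transgene itself. The labels do not say whether arrays of a group came from separate cages or litters, so p-values measure the spread between these samples.

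IGF binding proteins are secreted proteins that bind IGF1 and IGF2 with high affinity, carry them in blood and tissue fluid, and limit or prolong their access to the IGF1 receptor. IGFBP3 carries most circulating IGF in a ternary complex with the acid-labile subunit, IGFBP1 is a hepatocyte product that insulin represses, and IGFBP2 is a second abundant liver-derived carrier. IGFBP4 and IGFBP5 are released by connective tissue and fat cells and are cut by specific proteases, IGFBP6 prefers IGF2, and IGFBP7 is a more distant relative found in vessel walls and matrix.

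Deposited signals had array medians of 124 to 159 in liver and 130 to 230 in fat, and 31.8 to 41.0% of probes in liver and 40.3 to 49.0% in fat were detected (detection p under 0.01). All 6 hepatocyte markers were detected on all 60 liver arrays and all 6 adipocyte markers passed the filter in fat. Fat also held skeletal muscle, lymphocyte and mammary epithelium markers in amounts that varied between arrays. The liver array labelled XY-Sry testosterone replicate 5 had Xist at 6.63 and Eif2s3y at 4.53, as XX arrays did. The liver array labelled XY- estradiol replicate 5 had Hsd3b5, a gene induced by testosterone in liver, at 12.26, within the range of the testosterone arrays (11.15 to 12.95). All 5 XXSry estradiol livers also had Hsd3b5 above the blank livers, at 8.47 to 11.19 against 4.83 to 7.36. The fat array XX estradiol replicate 1 is called testosterone in 1 label field and estradiol in the others. It was kept as estradiol, and its level of the estrogen target Greb1 (9.22) lay among the estradiol arrays (7.17 to 9.30), above the highest other array (6.40). Fits without the 2 liver arrays, and with this fat array taken as testosterone, were also run. They ended no call of a member other than the one named with fat Igfbp5. Leaving out XY-Sry testosterone replicate 5 alone did end the call of the liver Igfbp2 fall under testosterone in the testis lines, as given below. Median centring in place of quantile normalisation moved the median liver difference under estradiol from -0.02 to -0.18. It lowered the share of liver calls that were higher from 42.8 to 16.5% for testosterone and from 52.1 to 8.55% for estradiol.

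Promoter windows of the 3 transcription starts that matter most for the results are shown so that the letters can be set beside the hormone responses. They are the 2 starts of Igfbp2, the member whose liver response to testosterone changed direction with gonad type, and the start of Igfbp6, the member that rose most under estradiol in fat. Each window is the 250 bases before a start in RefSeq (GRCm38.p6), on the strand of the gene. They lie at chr1:72824230-72824479 and chr1:72825137-72825386 on the plus strand for Igfbp2 and at chr15:102143936-102144185 on the plus strand for Igfbp6. Capitals mark matches to GGTCA or its reverse TGACC, the core of an estrogen response element, and to AGAACA or its reverse TGTTCT, the core of an androgen or glucocorticoid response element.
Igfbp2 first start: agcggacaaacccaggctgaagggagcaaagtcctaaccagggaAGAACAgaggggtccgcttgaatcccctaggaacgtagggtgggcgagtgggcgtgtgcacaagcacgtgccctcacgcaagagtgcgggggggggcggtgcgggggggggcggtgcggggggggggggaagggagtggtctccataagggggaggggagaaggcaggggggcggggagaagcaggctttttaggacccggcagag
Igfbp2 second start: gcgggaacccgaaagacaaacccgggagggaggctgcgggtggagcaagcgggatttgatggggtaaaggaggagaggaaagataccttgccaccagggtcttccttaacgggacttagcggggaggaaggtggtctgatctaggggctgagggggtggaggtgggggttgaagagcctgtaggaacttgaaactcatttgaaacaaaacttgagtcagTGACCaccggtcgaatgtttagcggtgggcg
Igfbp6: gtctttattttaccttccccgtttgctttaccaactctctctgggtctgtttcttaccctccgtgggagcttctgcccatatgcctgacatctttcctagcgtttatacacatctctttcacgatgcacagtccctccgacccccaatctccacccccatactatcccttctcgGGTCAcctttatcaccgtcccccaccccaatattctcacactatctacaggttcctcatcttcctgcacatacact
The first Igfbp2 window held 1 AGAACA, 206 bases before the start, and no GGTCA on either strand. The second held 1 TGACC, 31 bases before the start, and the Igfbp6 window held 1 GGTCA, 76 bases before it. Among the other members, Igfbp7 had 1 GGTCA (193 bases before its start) and Igfbp1, Igfbp3, Igfbp4 and Igfbp5 had neither motif on either strand. Such short motifs are common: 35.2% of 32851 mouse promoter windows of this length held the estrogen motif and 16.1% the androgen motif. In RefSeq order Igfbp2 and Igfbp5 are neighbours on chromosome 1, on opposite strands, and Igfbp1 and Igfbp3 are neighbours on chromosome 11.

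In liver 8 of the 10 probes passed the detection filter. Both Igfbp2 probes, both Igfbp4 probes and 1 Igfbp7 probe (ILMN_2764588) were detected on all 60 arrays, Igfbp3 on 59, Igfbp5 on 56 and Igfbp1 on 24. Igfbp6 and the other Igfbp7 probe (ILMN_2634286) were detected on none. In fat 8 probes also passed, but not the same ones. Igfbp3, Igfbp4, Igfbp5, Igfbp6 and Igfbp7 (ILMN_2764588) were detected on all 55 arrays. The 2 Igfbp2 probes were detected on 10 and 12 of them, and Igfbp1 and ILMN_2634286 on none.

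In liver Igfbp2 was the member with the lowest adjusted p, and its response to testosterone differed in direction between the ovary and testis lines. Without hormone it was about 2 times as high in the testis lines as in the ovary lines. Testosterone raised it in the ovary lines and lowered it in the testis lines, and estradiol lowered it in the testis lines. Under either hormone the lines no longer differed by the test used. All levels in the next sentences are of the brighter probe, ILMN_1236788.

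Without hormone the 5 XX livers had 11.89, 11.50, 11.52, 11.51 and 11.67, and the 5 XY- livers 12.21, 12.32, 12.07, 12.10 and 11.80. The 5 XXSry livers had 12.72, 13.20, 12.78, 13.15 and 12.45, and the 5 XY-Sry livers 13.28, 12.79, 12.90, 12.61 and 12.98. All 10 testis-line livers were thus above all 10 ovary-line livers. The means were 12.89 ± 0.27 and 11.86 ± 0.31 (SD, n = 10 each). The fitted difference was 1.03 (SE 0.19, 2.04-fold, limma adjusted p = 0.000263). Of all probes tested in liver, 1.75% were called for this contrast, and of the 8 member probes the 2 of Igfbp2 were.

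With testosterone the XX livers had 12.57, 12.79, 12.92, 12.61 and 12.14 and the XY- livers 13.41, 12.54, 12.80, 12.62 and 12.30. All 5 XX livers were above all blank XX livers, while 1 XY- value (12.30) was below the highest blank XY- value. The XXSry livers given testosterone had 11.92, 12.38, 12.20, 11.94 and 12.45, and the XY-Sry livers 13.23, 12.37, 11.41, 12.72 and 12.27. Those testis-line ranges overlapped the blank ones. The ovary lines rose by 0.81 (SE 0.19, 1.75-fold, limma adjusted p = 0.00211) and the testis lines fell by 0.60 (SE 0.19, adjusted p = 0.0299). The difference between the responses was -1.41 (SE 0.26, 95% interval -1.93 to -0.88, adjusted p = 0.00274). Only 0.124% of liver probes were called for that interaction (14 probes), and this probe ranked 7 among all by p. In each single line, 7.06% of probes were called for testosterone in the ovary lines and 9.14% in the testis lines.

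The fall in the testis lines was the less secure side. It was -0.47 (adjusted p = 0.0991) without XY-Sry testosterone replicate 3, the lowest testis-line array under testosterone (11.41). Without XXSry blank replicate 2 or 4, XXSry testosterone replicate 1 or 4, XY-Sry blank replicate 1 or XY-Sry testosterone replicate 5 it was also lost, with adjusted p of 0.0505 to 0.0646. The last of these is the array whose Xist and Eif2s3y levels went against its label. The fall was -0.62 (adjusted p = 0.055) with median centring. The interaction and the rise in the ovary lines kept their calls with each of the 60 arrays left out and under each other setting run. On the 3 slides that held blank and testosterone arrays of both lines, the ovary-line difference was 0.94, 1.06 and 0.49. The testis-line difference on the same slides was -0.39, -0.86 and -0.42. The first of these slides held no blank XY-Sry array, so its testis-line value sets both genotypes against blank XXSry alone.

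Estradiol left the XX livers at 10.06, 11.74, 11.73, 12.11 and 11.95 and the XY- livers at 12.11, 11.06, 12.02, 12.05 and 12.43, both overlapping their blank groups. The XXSry livers given estradiol had 12.13, 12.18, 12.27, 11.82 and 11.85, and the XY-Sry livers 11.94, 11.27, 12.48, 11.70 and 11.63. Both testis-line genotypes lay below all their own blank livers. The testis lines fell by 0.96 (SE 0.19, limma adjusted p = 0.000913, the blank level being 1.94 times as high), where 1.78% of all probes were called. The ovary lines changed by -0.13 (95% interval -0.51 to 0.24, adjusted p = 0.799, 2.47% of probes called). The difference between those responses was -0.83 (SE 0.26) and was not called (adjusted p = 0.329, 0.0795% of probes called). With array weights it was -1.02 (adjusted p = 0.00893). Within the 2 slides that held estradiol and blank arrays of both lines, the testis lines differed by -1.09 and -0.65. The ovary lines differed by -0.82 and 0.07 there. The first slide held no blank XXSry array, so its testis-line value sets both genotypes against blank XY-Sry alone.

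**Figure D1:**
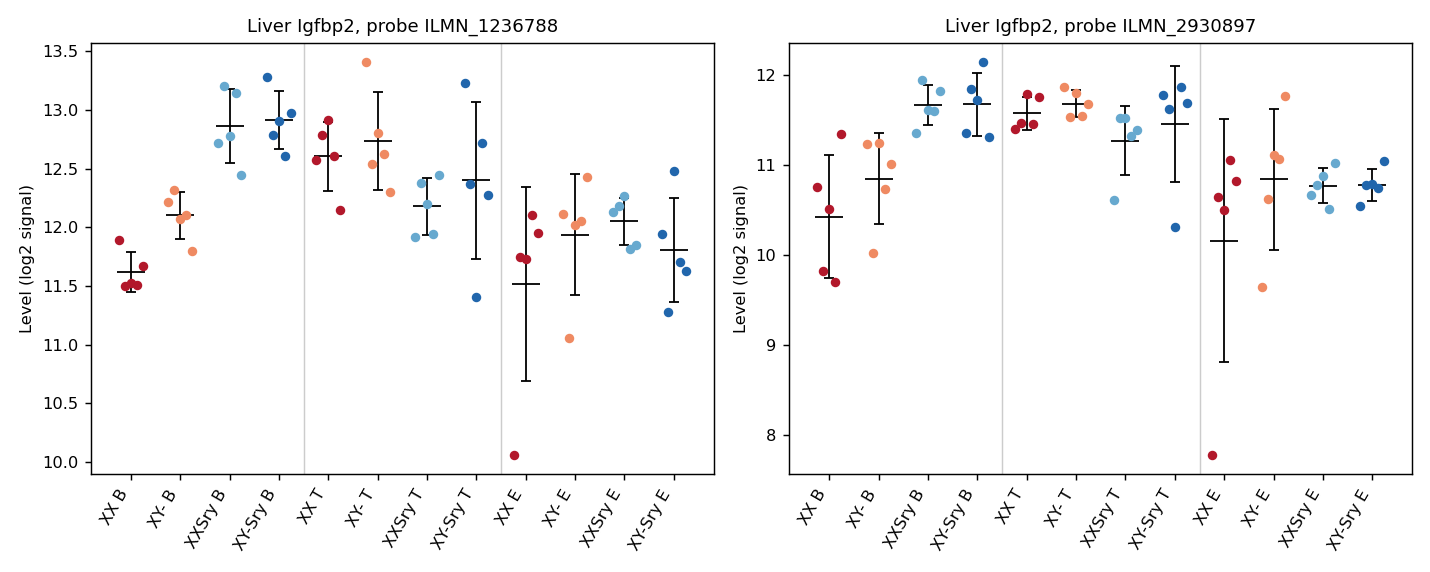
Normalised log2 level of Igfbp2 in each liver for both probes, by genotype and capsule (B blank, T testosterone, E estradiol), with 1 point per array and lines at the group mean ± SD. For ILMN_1236788 the blank testis-line livers (12.45 to 13.28) all lie above the blank ovary-line livers (11.50 to 12.32), and this order is lost under either hormone.

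The second Igfbp2 probe, ILMN_2930897, moved the same way. Its blank level was 10.64 ± 0.61 in the ovary lines and 11.67 ± 0.28 in the testis lines (SD, n = 10 each), a difference of 1.03 (SE 0.25, limma adjusted p = 0.0108). Testosterone took the ovary lines to 11.63 ± 0.17, a rise of 0.99 (SE 0.25, adjusted p = 0.00564), and all XX and all XY- livers were above their blank groups. In the testis lines the difference was -0.31 (SE 0.25) and was not called (adjusted p = 0.507). The interaction was -1.30 (SE 0.35, adjusted p = 0.213). It was called with slide as a block (-1.30, adjusted p = 0.0182), with array weights (-1.26, adjusted p = 0.00539) and without XX estradiol replicate 1 (-1.30, adjusted p = 0.0103). That array is in no group of the interaction, so leaving it out changed only the estimate of spread that all groups share. Estradiol lowered it by 0.89 (adjusted p = 0.0414) in the testis lines, where both genotypes lay below all their blank livers. Leaving out 1 array at a time ended that call for 14 of the 20 blank and estradiol testis-line arrays, with the highest adjusted p (0.0815, difference -0.84) without XY-Sry blank replicate 4. With median centring its rise, its fall under estradiol and its blank difference had adjusted p of 0.0682, 0.0895 and 0.0638.

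The order of the 6 arms of Igfbp2 in liver by mean level of ILMN_1236788 was blank testis lines (12.89), testosterone ovary lines (12.67), testosterone testis lines (12.29), estradiol testis lines (11.93), blank ovary lines (11.86) and estradiol ovary lines (11.73). Neighbours in that order differed by less than the sum of their SDs. Averaged over all genotypes, testosterone changed it by 0.11 (adjusted p = 0.635) and estradiol by -0.55 (SE 0.13, adjusted p = 0.00505). Averaged over capsules, the lines differed by 0.28 (adjusted p = 0.182), and XX and XY groups by -0.18 (adjusted p = 0.999).

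Hepatocyte markers did not move with this pattern. The summed level of the 6 hepatocyte markers was 15.28 to 15.83 on all liver arrays, with arm medians of 15.57 to 15.68. Macrophage markers did move: all 5 tested were lower in the testis lines over all capsules, where 3.4% of all liver probes were called. Under testosterone in the ovary lines 4 of 5 were lower, where 7.06% of all liver probes were called. The summed macrophage level was 11.44 to 12.65 in blank ovary-line livers and 10.64 to 11.16 in blank testis-line livers. None of the markers was called for the interaction of testosterone with gonad type. Only 0.124% of all liver probes were, so the lack of such a call says little about the markers. In whole tissue, fewer cells of a type and less RNA per cell cannot be told apart, and the part of the macrophage shift in the Igfbp2 differences was not tested.

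Igfbp1, the insulin-repressed binding protein, was near background in most livers and no contrast of it was called. Its blank levels were 5.82, 5.71, 6.19, 5.71 and 5.38 in XX livers, all detected, and 4.53 to 5.59 in the other 3 genotypes, with 2 of 15 detected. The XX estradiol livers had 9.56, 5.49, 5.16, 5.35 and 5.58. The first of these, XX estradiol replicate 1, also had the lowest level of both Igfbp2 probes (10.06 and 7.78) and of Ghr, the growth hormone receptor (10.02). Socs3, a feedback inhibitor of cytokine and growth hormone signalling, was highest there (10.30, next 9.22). With that array in, the ovary-line difference under estradiol was 0.80 (SE 0.33, adjusted p = 0.202), and with slide as a block it was 1.13 (adjusted p = 0.0483). In XY- livers all 5 testosterone arrays (5.19 to 6.40) were above all 5 blank arrays (4.53 to 5.06). The probe was detected on 2 of these testosterone arrays and on 0 of the blank ones. In XX livers the testosterone difference went the other way (-0.52). It was 0.15 in XXSry and 0.28 in XY-Sry livers, and in these 3 genotypes the arrays overlapped. The share of all probes that separate as in XY- livers was not computed.

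Igfbp3, the carrier in the ternary complex, was lower under testosterone. Blank livers of the ovary lines ranged from 6.14 to 7.77 (median 7.14) and testosterone livers from 5.97 to 6.93 (median 6.39). In the testis lines blank livers ranged from 6.07 to 7.10 (median 6.50) and testosterone livers from 5.27 to 7.27 (median 6.29). All these ranges overlapped. The difference was -0.41 over all lines (SE 0.14, limma adjusted p = 0.0360) and -0.65 in the ovary lines (SE 0.20, adjusted p = 0.0353), and the responses of the lines did not differ by the test (0.48, SE 0.28, adjusted p = 0.897). For testosterone over all lines 19.1% of liver probes were called, and Igfbp3 was 1 of 8 member probes, close to that background.

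The Igfbp3 call was marginal. It was lost with slide as a block (-0.36, adjusted p = 0.101), without the filter on dim probes (adjusted p = 0.0745) and when any of 13 arrays was left out. The largest of those losses was without XY-Sry testosterone replicate 3 (-0.34, adjusted p = 0.0735), the array on which Igfbp3 was not detected. The ovary-line call was lost with any of 11 of the 20 arrays it compares left out (adjusted p up to 0.0954, without XX blank replicate 4). Within slides the difference over all lines was -0.48, -0.44 and -0.24. In the ovary lines, testosterone called 3 member probes, the 2 of Igfbp2 as higher and Igfbp3 as lower, against the 7.06% of all probes given above.

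Igfbp5, a matrix-bound binding protein, was lower by 0.52 under testosterone (SE 0.20), which missed the threshold (adjusted p = 0.0611). Blank livers were at 6.20 to 8.22 (median 7.03) and testosterone livers at 5.35 to 7.75 (median 6.60). It was called with slide as a block (-0.60, adjusted p = 0.0268), array weights (-0.60, adjusted p = 0.0123) and median centring (-0.62, adjusted p = 0.0338). Within the 3 slides it was -0.63, -0.55 and -0.55. Under testosterone the fibroblast marker Col3a1 (-0.58), the endothelial marker Cdh5 (-0.69) and the macrophage markers Clec4f (-0.64) and Csf1r (-0.37) were also called lower. Of all liver probes 19.1% were called for testosterone. These markers are named from lists of 7, 6 and 5 tested genes, whose other members are not given singly here. The 7 tested stellate cell or fibroblast markers had summed medians of 12.29 and 12.20 in blank ovary and testis lines and 12.22 and 12.17 under testosterone. For the 6 tested endothelial markers they were 12.91 and 12.68 without hormone and 12.44 and 12.23 under testosterone. The part of these cells in the Igfbp3 and Igfbp5 differences was not tested.

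Igfbp4 was the steadiest member in liver. Over all 60 arrays ILMN_1258988 stayed between 13.28 and 14.05 (mean 13.65, SD 0.17) and ILMN_2694955 between 12.63 and 13.59 (mean 13.22, SD 0.20). For ILMN_1258988 the 95% intervals were -0.17 to 0.08 for testosterone, -0.12 to 0.13 for estradiol and -0.12 to 0.08 for gonad type. Igfbp7 (ILMN_2764588) ranged from 9.16 to 11.39 and was not called in any contrast. Its blank, testosterone and estradiol means were 10.09 ± 0.54, 10.11 ± 0.49 and 10.45 ± 0.44 (SD, n = 20 each). Its testosterone difference was 0.02 and turned to -0.26 (adjusted p = 0.0400) with slide as a block, which also called estradiol (0.31, adjusted p = 0.0452) and gonad type (-0.27, adjusted p = 0.00674). Within the 3 slides its testosterone difference was -0.15, -0.40 and -0.24.

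**Figure D2:**
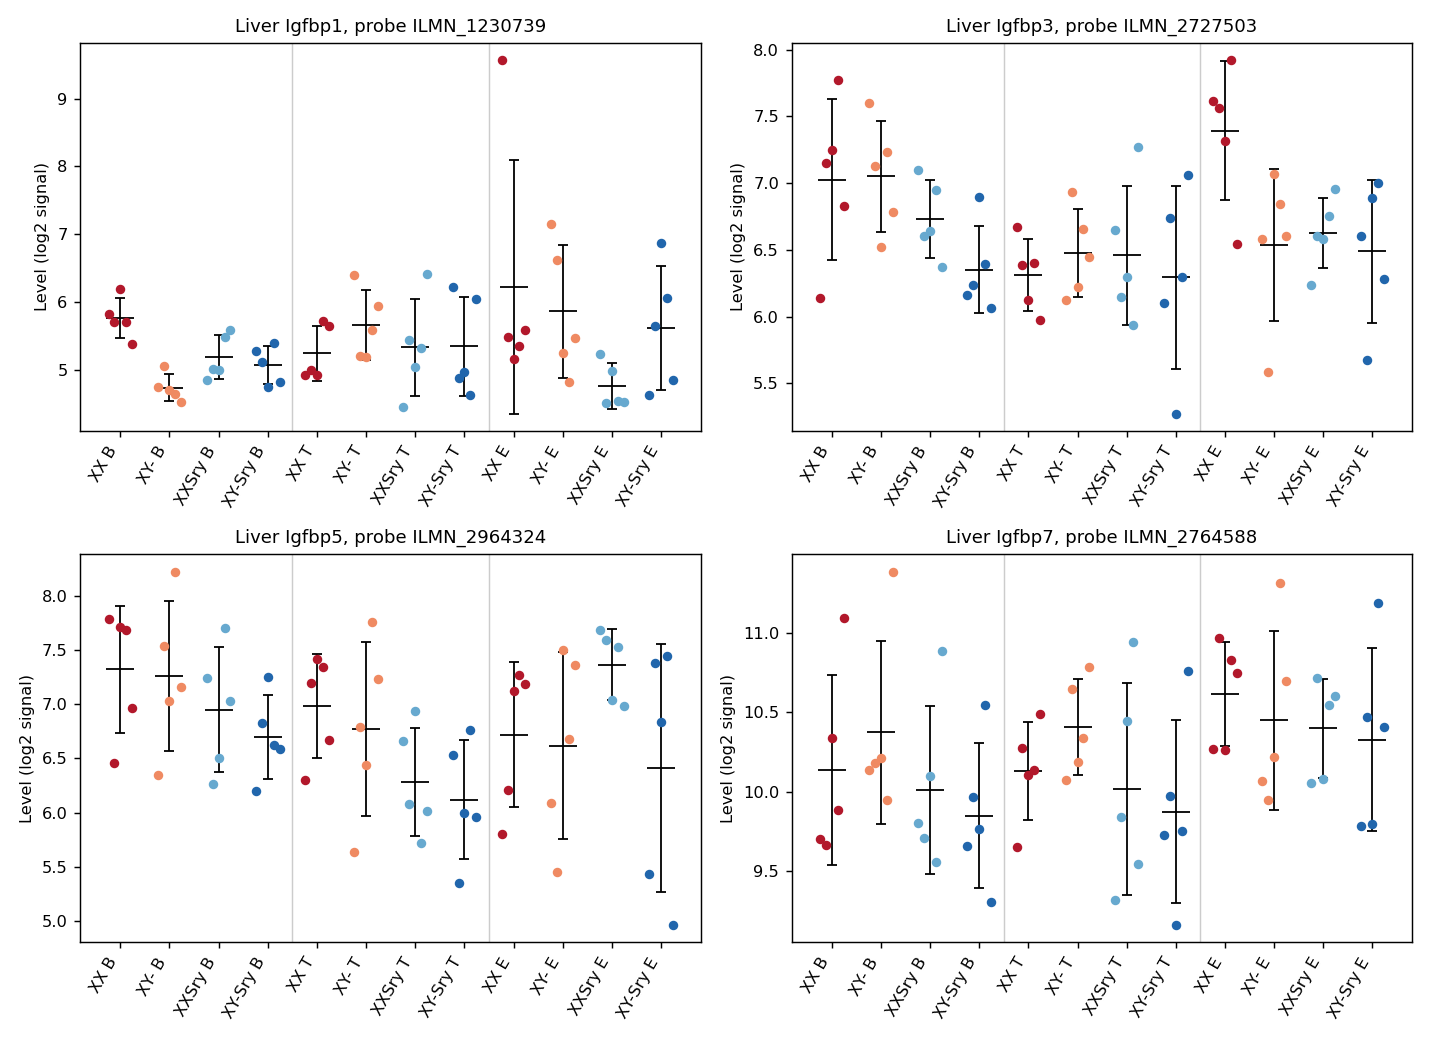
Normalised log2 level in liver of Igfbp1, Igfbp3, Igfbp5 and Igfbp7, by genotype and capsule (B blank, T testosterone, E estradiol), with 1 point per array and lines at the group mean ± SD. The single high Igfbp1 point is XX estradiol replicate 1 (9.56), and the testosterone groups of Igfbp3 and Igfbp5 sit lower than the blank groups on average, with overlap.

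The remaining liver contrasts called few members. Estradiol over all lines called 1 of 8 (Igfbp2, lower) against 6.82% of all probes. In the testis lines estradiol called the 2 Igfbp2 probes. Gonad type over all capsules called none (background 3.4%), nor did XX against XY groups (0.186%). At an unadjusted p under 0.05 gonad type gave 4 of 8 member probes, both of Igfbp2 higher and Igfbp3 and Igfbp7 lower in the testis lines, against 11.4% of all liver probes. XX against XY gave none, against 4.17%. The lines under testosterone (0.212% of probes called) and under estradiol (2.44%) gave no member call either. Unadjusted, Igfbp2 (ILMN_1236788) and Igfbp5 passed for the first (4.44% of all probes) and Igfbp1 and Igfbp3 for the second (12%). Both Igfbp2 probes passed unadjusted for estradiol by gonad type (5.5%), and Igfbp1 and Igfbp5 for estradiol in the ovary lines (15.1%).

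In inguinal fat the member that moved most was Igfbp6, the binding protein with a preference for IGF2. Estradiol raised it 3.74-fold over all lines, and testosterone raised it less. In the ovary lines Igfbp6 rose 2.83-fold and in the testis lines 4.96-fold under estradiol, and the responses of the lines did not differ by the test.

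Without hormone Igfbp6 was at 10.77, 11.19 and 10.85 in XX fat and at 9.68, 10.73, 12.12, 9.75 and 10.87 in XY- fat. It was at 11.29, 10.22, 11.16, 10.83 and 10.14 in XXSry fat and at 10.29, 9.93, 10.52 and 9.92 in XY-Sry fat. The blank groups overlapped, and 1 XY- array stood above the rest (12.12). With estradiol XX fat had 12.78, 12.55, 12.85, 12.53 and 12.69, and XY- fat 12.37, 12.57, 10.33, 12.23 and 11.92. XXSry fat had 13.24, 12.48, 13.04 and 12.67, and XY-Sry fat 13.17, 11.69, 12.53, 12.98 and 12.93. In XX, XXSry and XY-Sry mice all estradiol arrays were above all blank arrays, and in XY- mice they overlapped. The difference was 1.90 over all lines (SE 0.19, limma adjusted p = 1.72e-10), where 20.5% of fat probes were called. The ovary lines alone passed too (SE 0.28, adjusted p = 0.000145, 10.2% called), as did the testis lines at 2.31 (SE 0.27, adjusted p = 1.81e-08, 10.1% called). The difference between the lines' responses was 0.81 (SE 0.39, 95% interval 0.03 to 1.60, adjusted p = 0.812, 0.813% called). Within the 2 slides with all genotypes the estradiol difference was 1.32 and 2.10.

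With testosterone Igfbp6 was at 10.82, 11.09, 11.89 and 11.40 in XX fat and at 11.04, 10.79, 10.98, 12.36 and 11.28 in XY- fat. XXSry fat had 11.42, 11.43, 11.48, 11.63 and 12.18, all above the blank XXSry arrays, and XY-Sry fat 10.23, 11.59, 11.65, 11.56 and 11.83. The difference was 0.78 over all lines (SE 0.19, limma adjusted p = 0.0104, 4.75% of fat probes called). It was 1.05 in the testis lines (SE 0.26, adjusted p = 0.0150, 3.55% called) and 0.51 in the ovary lines (SE 0.28, adjusted p = 0.814, 0.417% called). The interaction was 0.54 (SE 0.39) and was not called, as for all but 0.0137% of probes. With slide as a block the adjusted p was 0.0853 over all lines and 0.0527 in the testis lines, and with median centring 0.0974 and 0.122. On the 2 slides that held blank and testosterone arrays of both lines the difference was 1.66 and 0.25. The first held no blank XXSry array and the second no blank XX or XY-Sry array, so genotypes were not matched in these values.

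Stromal and immune markers rose beside Igfbp6 under estradiol, where 20.5% of all fat probes were called. In fat 4 of 7 tested fibroblast markers were higher (Col1a1 by 0.77, Col3a1 by 0.72, Pdgfra by 0.91 and Dcn by 0.25) and Reln was lower (-0.49). Of the 4 tested macrophage markers, 3 were higher (Emr1 by 1.26, Vsig4 by 1.76 and Csf1r by 1.13). The beige fat genes Ucp1 (-2.37) and Cidea (-2.87) were lower. The summed fibroblast markers had medians of 14.81 and 14.40 in blank ovary and testis lines and 14.91 and 15.06 under estradiol. The part of these cells in the Igfbp6 difference was not tested.

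Igfbp5 in fat differed by gonad line and not by hormone overall. Blank XX fat had 13.54, 13.90 and 13.76 and blank XY- fat 13.00, 13.34, 13.81, 13.42 and 13.74, against 13.39, 12.61, 12.19, 13.51 and 12.99 in XXSry and 12.73, 12.54, 12.36 and 12.94 in XY-Sry fat. Within each chromosome complement all ovary-line arrays were above all testis-line arrays. The difference without hormone was -0.81 (SE 0.16, 1.75 times as high in the ovary lines, limma adjusted p = 0.00122), where 1.8% of fat probes were called. Under testosterone the means were 13.38 ± 0.11 (n = 9) and 12.82 ± 0.35 (SD, n = 10), a difference of -0.57 (SE 0.15, adjusted p = 0.0223, 3.42% called). XX testosterone fat (13.26 to 13.60) lay above all XXSry testosterone fat (12.58 to 13.09). Under estradiol the means were 13.10 ± 0.31 (n = 10) and 13.01 ± 0.35 (SD, n = 9), a difference of -0.08 (95% interval -0.38 to 0.23, adjusted p = 0.941, 4.4% called).

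Over all capsules Igfbp5 was lower in the testis lines by 0.48 (SE 0.09, adjusted p = 0.000111), with 7.34% of fat probes called. On the 5 slides with blank arrays of both lines the blank difference ran from -1.08 to -0.39. Not all of these slides held every blank genotype, and 1 held only 2 blank arrays. Estradiol lowered Igfbp5 in the ovary lines by 0.50 (SE 0.16, adjusted p = 0.0360) and changed it by 0.23 in the testis lines (adjusted p = 0.431). The difference between these responses, 0.73 (SE 0.23, 95% interval 0.28 to 1.19), was not called (adjusted p = 0.153) but was with array weights (0.85, adjusted p = 0.00445). The ovary-line fall was lost with slide as a block (adjusted p = 0.0758), median centring (0.0946), no filter (0.0519) and the relabelling of XX estradiol replicate 1 (0.0594). It was also lost without XX blank replicate 2 or 3, XX estradiol replicate 1 or 4, XY- blank replicate 3 or 5, or XY- estradiol replicate 3, with adjusted p of 0.0575 to 0.0978. The gonad difference under testosterone was lost without XX testosterone replicate 3 (-0.53, adjusted p = 0.0586) or XY-Sry testosterone replicate 1 (-0.48, adjusted p = 0.0690), without the 3 arrays with hepatocyte transcripts described below (-0.47, adjusted p = 0.106) and with median centring (-0.50, adjusted p = 0.291).

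Mammary epithelium moved with the same gonad contrast and by much more. All 6 tested mammary markers were lower in the testis lines (7.34% of all fat probes called), with differences from -3.20 for Krt8 to -4.18 for Csn3. Their summed level was 11.92 to 13.90 in blank ovary-line fat and 8.14 to 11.19 in blank testis-line fat, with no overlap. Smooth muscle markers were also lower in the testis lines (Acta2 -0.93, Myh11 -0.72, Tagln -0.44), and the fat cell genes Plin1 (0.39) and Lep (0.50) were higher. With the mean levels of skeletal muscle, lymphocyte and mammary markers as covariates, the Igfbp5 difference was -0.14 (adjusted p = 0.881). In that fit it was -0.51 (adjusted p = 0.941) without hormone, and no fat probe of any gene was called for gonad type. Under estradiol the medians of the summed mammary level were 13.99 and 9.50 in the ovary and testis lines, against 12.57 and 9.16 without hormone. Those of the summed smooth muscle and pericyte markers were 11.47 and 11.03, against 11.98 and 11.15. The Igfbp5 difference was -0.08 under estradiol, against -0.81 without hormone. The part of either cell type in the Igfbp5 differences was not tested.

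**Figure D3:**
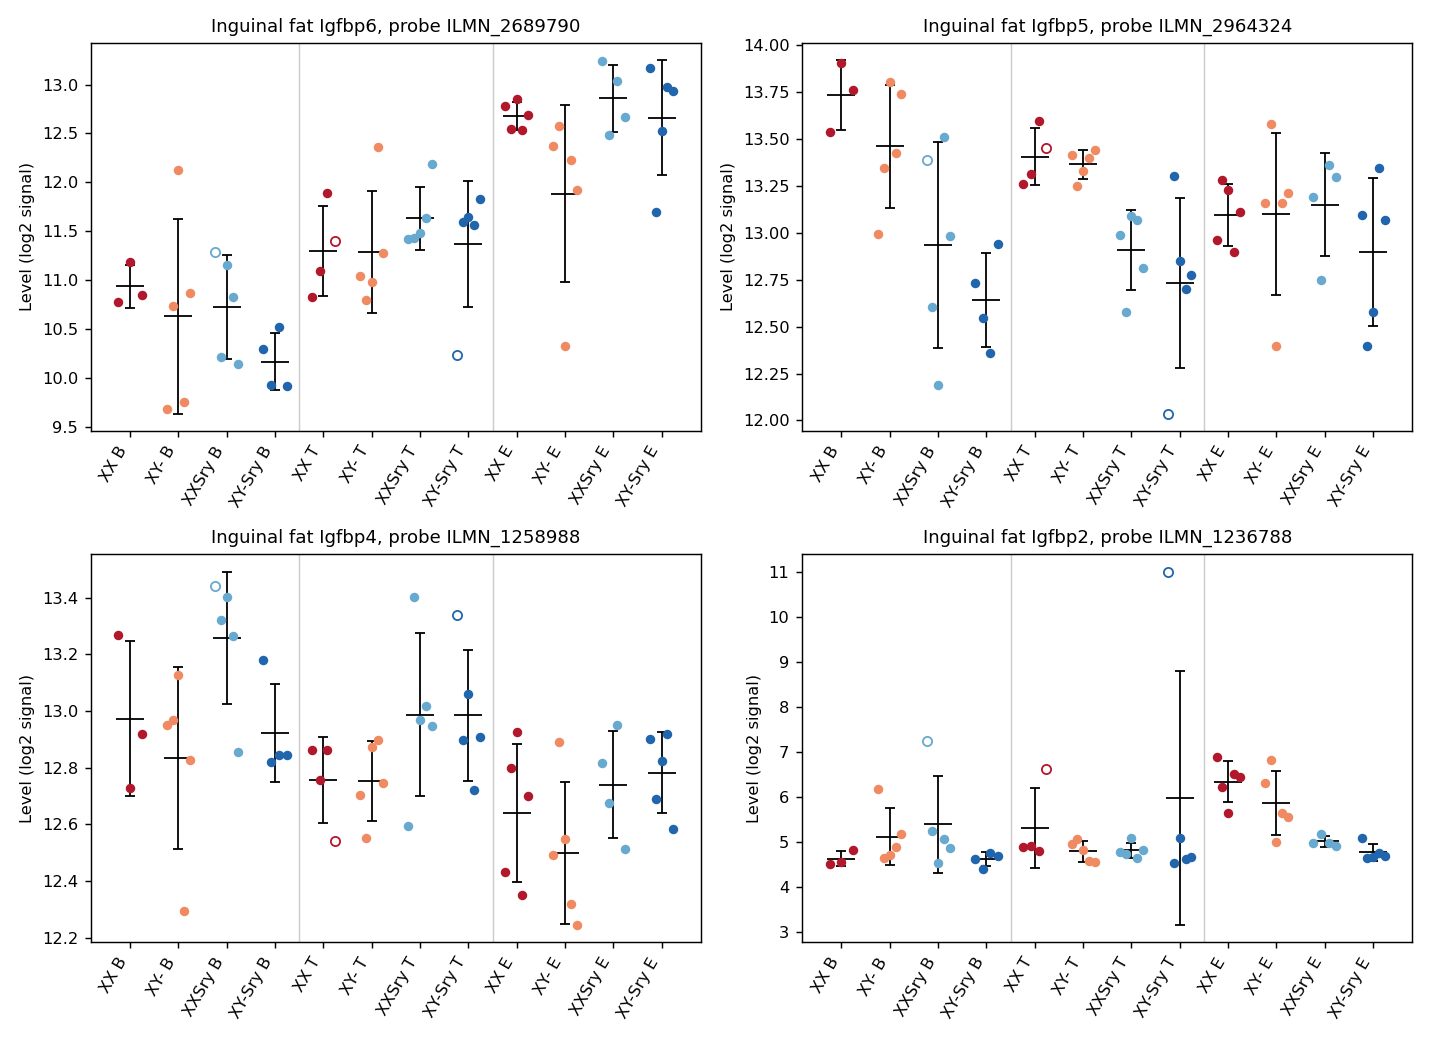
Normalised log2 level in inguinal fat of Igfbp6, Igfbp5, Igfbp4 (ILMN_1258988) and Igfbp2 (ILMN_1236788), by genotype and capsule (B blank, T testosterone, E estradiol), with 1 point per array, lines at the group mean ± SD and open circles for the 3 arrays on which all tested hepatocyte markers were detected. Igfbp6 is highest in the estradiol groups, Igfbp5 is lower in the blank and testosterone groups with Sry, and most Igfbp2 points lie near background.

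Igfbp4, a fat cell and stromal product, fell slightly under estradiol. For ILMN_1258988 the blank arrays ran from 12.30 to 13.44 (median 12.95) and the estradiol arrays from 12.25 to 12.95 (median 12.69). The difference was -0.33 (SE 0.08, limma adjusted p = 0.00196), and the single lines gave -0.33 in each (adjusted p = 0.0557 and 0.0542). The second probe, ILMN_2694955, gave -0.37 (SE 0.12, adjusted p = 0.0189), which was lost with median centring (-0.43, adjusted p = 0.123). Estradiol over all lines thus called 3 of 8 member probes, against 20.5% of all fat probes. They were from 2 genes, Igfbp6 higher and both probes of Igfbp4 lower. ILMN_1258988 was also higher in the testis lines by 0.20 (SE 0.07, adjusted p = 0.0457). Leaving out 1 array at a time ended that call for 31 of the 55 arrays, with the highest adjusted p (0.108, difference 0.18) without XX blank replicate 2. It was lost in the fit with marker covariates too (0.07, adjusted p = 0.904). The second probe, ILMN_2694955, was higher in the testis lines by 0.29 (SE 0.10) and just missed the threshold (adjusted p = 0.0507). With slide as a block its difference was 0.31 (limma adjusted p = 0.000613), and within slides it was above 0 in all 15 pairings of slide and capsule (0.03 to 0.54). Not every pairing held all genotypes.

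Igfbp2, whose main source is the liver, was detected in few fat arrays, and the detected ones fell into 2 kinds. On 3 arrays all 5 tested hepatocyte markers were detected. Their summed hepatocyte level was 15.7 on XY-Sry testosterone replicate 1, 13.5 on XX testosterone replicate 4 and 13.4 on XXSry blank replicate 1, against a median of 8.39 over the fat arrays. Igfbp2 (ILMN_1236788) was 11.01, 6.63 and 7.25 on them. The other arrays with Igfbp2 detected were mainly ovary-line estradiol fat. There XX fat had 6.88, 6.22, 5.65, 6.50 and 6.43 and XY- fat 6.31, 6.81, 5.00, 5.65 and 5.54, with 6 of 10 detected, while testis-line estradiol fat had 4.65 to 5.17, with 0 of 9 detected. The summed hepatocyte level in ovary-line estradiol fat had a median of 7.49, below that of the tissue, and a highest value of 11.77.

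On all 55 arrays neither Igfbp2 probe was called in any contrast. The ovary-line estradiol difference of ILMN_1236788 was 1.23 (SE 0.47, limma adjusted p = 0.0946) and the line difference under estradiol -1.21 (SE 0.45, adjusted p = 0.149). Without the 3 arrays, a setting chosen after seeing the data, both passed the threshold, as they did without XY-Sry testosterone replicate 1 alone. None of those arrays is in the groups compared, so leaving them out could not change the differences. It changed only the estimate of spread that all groups share, and no conclusion is drawn from the passing. No p-value is given for that setting. Of the 7 arrays that then detect the probe, 6 are ovary-line estradiol arrays and 1 is a blank XY- array, so it passes the filter only through the group where it is high. Within the 2 slides with all genotypes the estradiol difference of ILMN_1236788 was 1.91 and 1.07 in the ovary lines and 0.07 on both in the testis lines. Since no testis-line estradiol array detected Igfbp2, its level there is only an upper bound. The mammary markers named above had summed levels of 13.72 to 14.72 in ovary-line estradiol fat and at most 12.28 in testis-line estradiol fat, and their part in the Igfbp2 difference was not tested.

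Igfbp3 in fat ran from 6.93 to 9.74 (median 8.40) without hormone and from 6.24 to 9.13 (median 7.62) with estradiol, a difference of -0.57 (SE 0.22) that missed the threshold (adjusted p = 0.0574). It was called with array weights (-0.67, adjusted p = 0.00302), with the marker covariates (-0.49, adjusted p = 0.0447) and when any of 8 arrays was left out. The lowest adjusted p of these was 0.00943, without XXSry estradiol replicate 4. Igfbp7 (ILMN_2764588) stayed between 12.25 and 13.50 and was not called in any contrast, with 95% intervals of -0.44 to -0.04 for testosterone (adjusted p = 0.175) and -0.18 to 0.21 for estradiol. Gonad type over all capsules called 2 of the 8 fat probes, Igfbp5 and 1 of Igfbp4. XX against XY groups called none (background 0.137%). Igfbp6 passed an unadjusted threshold of 0.05 there (0.35, 95% interval 0.04 to 0.67), as 9.22% of all fat probes did. For estradiol by gonad type, where none was called, Igfbp5, Igfbp6 and 1 probe of Igfbp2 passed it (5.88% of all probes). For the lines under estradiol both Igfbp2 probes and 1 of Igfbp4 did (12.7%). For testosterone by gonad type (4.26%) and testosterone in the ovary lines (7.02%) none did.

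Set beside each other, the 2 tissues gave different members for the same capsule. Under estradiol Igfbp2 differed by -0.55 in liver while Igfbp6, not detected in liver, differed by 1.90 in fat. Igfbp4 differed by 0.00 (95% interval -0.12 to 0.13) in liver and by -0.33 (-0.49 to -0.17) in fat for the same probe, and the tissue difference itself was not tested. Igfbp2 and Igfbp5, neighbours on chromosome 1, had blank gonad differences of 1.03 and -0.47 in liver, the second not called (adjusted p = 0.688), and in fat Igfbp5 differed by -0.81 while Igfbp2 was at background.

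**Figure D4:**
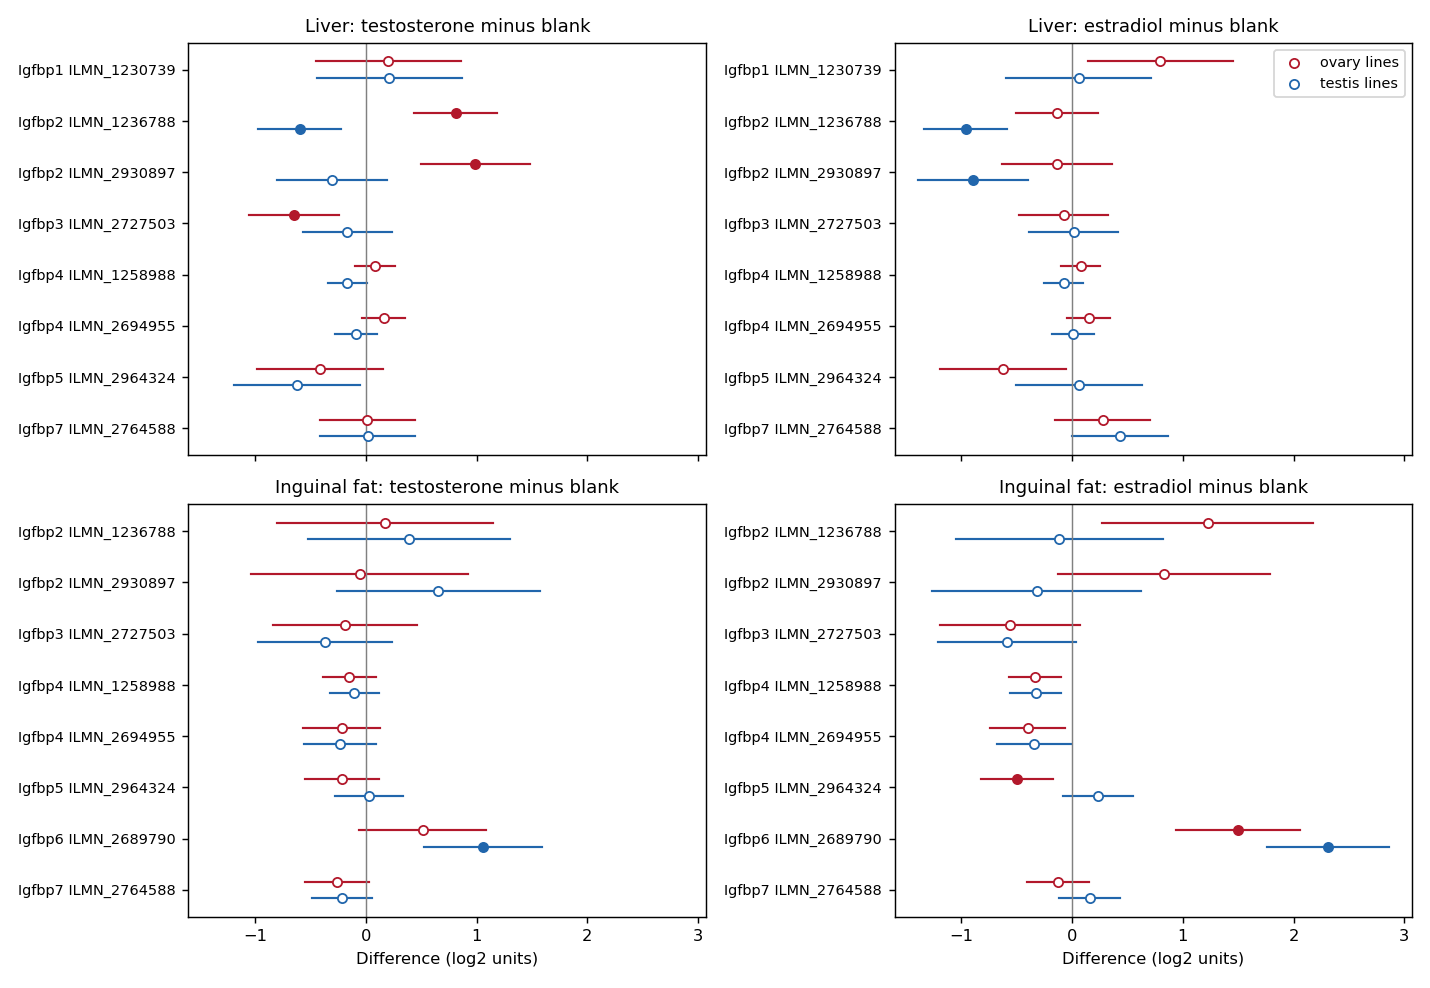
Testosterone and estradiol minus blank in the ovary lines and in the testis lines for each tested member probe, in liver and in fat, as log2 differences with 95% intervals, filled where called. Liver Igfbp2 lies above 0 for testosterone in the ovary lines and below it in the testis lines, and fat Igfbp6 lies above 0 for estradiol in both.

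Of 28 other genes of the IGF axis, 18 were tested in liver and 21 in fat. In liver testosterone called 5 of the 18, all lower, with a median difference of -0.12 against 0.00 over all probes, of which 19.1% were called and more of them lower (1237) than higher (925). They were Igf1 itself (-0.29, limma adjusted p = 0.00304), Igfals, the acid-labile subunit (-0.38), the growth hormone-induced inhibitors Socs2 (-0.83) and Cish (-0.89), and Irs2, an insulin receptor adaptor (-0.66). None of the 18 was called for the interaction of testosterone with gonad type, where only 0.124% of liver probes were, so this says little about them. Estradiol called 2 higher in liver, Stat5a (0.39) and Socs3 (0.78), where 6.82% of liver probes were called. Gonad type called 1, Igf2bp2 (-0.39), where 3.4% were.

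In fat estradiol called 4 axis genes higher and 4 lower of 21, where 20.5% of all probes were called. The higher ones were Htra1, a secreted protease that cuts IGF binding proteins (1.25), Stc2, an inhibitor of the protease that cuts IGFBP4 (0.54), Stat5a (0.48) and Socs2 (1.46). The lower ones were Igf1 (-0.34), Cish (-0.71), Irs2 (-0.65) and Akt2 (-0.69). The protease gene Pappa itself was on the list of axis genes, and no value of it is given here. Testosterone called Igf2bp2 higher (0.69) and Igfals (-0.57) and Grb10 (-0.38) lower, where 4.75% of fat probes were called. Gonad type called Igf1 higher (0.44) and Stc2 (-1.69) and Socs3 (-0.44) lower in the testis lines, where 7.34% of fat probes were called. Stc2 was also called for estradiol by gonad type (-1.28, limma adjusted p = 0.0260, 0.813% of fat probes called), with an ovary-line rise of 1.18. No axis gene was called for XX against XY groups in either tissue, where 0.186% of liver probes and 0.137% of fat probes were called.

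The genes whose 12 group means followed a member most closely are given as a description, since group means share arrays and normalisation. In liver the means of Igfbp2 were matched best by Isca1 (Pearson r = 0.96 over 12 group means), Mpv17l (0.93) and EG625054 (0.91), those of Igfbp3 by D2Bwg0891e (0.94), and those of Igfbp7 by Hcls1 (0.93), a blood cell gene. In fat Igfbp6 was matched by Pla1a (0.99), Map1lc3b (0.98) and Bmp1 (0.98). Igfbp5 was matched by 1500015O10Rik (0.96), the smooth muscle gene Myh11 (0.94) and Hey1 (0.92). Igfbp4 was matched by Vhlh (0.97), and Igfbp2 by Tmprss6 (0.89), Itih2 (0.83) and Saa3 (0.79), of which Tmprss6 and Itih2 are known as liver products. For Igfbp1 in liver the closest was Tnfaip2 (0.88), for Igfbp4 Abcf1 (0.89) and for Igfbp5 Add3 (0.88), and in fat for Igfbp3 Cnot7 (0.90) and for Igfbp7 B230217C12Rik (0.92).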

How the data were processed

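RNA of 60 livers and 55 inguinal fat pads was read on Illumina bead arrays. The deposited probe intensities are mean bead signals, whose values show no normalisation or background subtraction, with a detection p-value per probe and array, per the file headers. Per the submitters' processing notes lumi was used, with no version given, and 115 further columns were not used. The build of the probes is not given in the sources used here.

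Each tissue was processed alone in limma 3.58.1 under R 4.3.3. Intensities were background-corrected by normexp with negative controls inferred from the detection p-values (offset 16), quantile normalised and taken to log2. Probes with detection p under 0.01 on at least 5 liver or 3 fat arrays were tested (11317 and 14636 of 25697). A model of the 12 group means gave 13 contrasts per tissue, with Benjamini-Hochberg adjustment over all tested probes and calls under 0.05. A contrast averages genotypes with equal weight. The script was tested on simulated data.

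All member probes are named whatever their values, and axis genes where called. Members, the list of axis genes and the marker lists were chosen with earlier results of these data known. The 3 genes most like a member were ranked by Pearson's r over 12 group means. Promoters are from RefSeq (GRCm38.p6). Alternatives were no background correction, median centring, offset 1, no filter, slide as a block, array weights, each array left out in turn, doubted arrays left out or relabelled, and marker levels as covariates. Leaving out 3 fat arrays with hepatocyte transcripts was chosen after seeing the data.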

Additional observations from a re-analysis of the deposited data

Results flagged for a closer look

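In 18 of 184 groups of 4 or 5 arrays the highest or lowest array of a member probe stood apart from the others by Dixon's test, where chance alone gives about 1 in 20 groups. Several of these fell on the same arrays.

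In liver, XX estradiol replicate 1 stood apart for Igfbp1 (9.56, the others 5.16 to 5.58) and for both Igfbp2 probes (10.06 against 11.73 to 12.11, and 7.78 against 10.50 to 11.06). For Igfbp2 probe ILMN_2930897, XXSry testosterone replicate 1 was at 10.61 (others 11.32 to 11.52) and XY-Sry testosterone replicate 3 at 10.31 (others 11.63 to 11.86). Igfbp4 probe ILMN_2694955 was at 13.15 on XXSry estradiol replicate 2 (others 13.32 to 13.39), and Igfbp7 at 11.39 on XY- blank replicate 5 (others 9.95 to 10.21).

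In fat, XY-Sry testosterone replicate 1 stood apart for both Igfbp2 probes (11.01 and 10.88, others at most 5.08) and for Igfbp6 (10.23, others 11.56 to 11.83). XXSry blank replicate 1 stood apart for both Igfbp2 probes (7.25 and 6.73, others at most 5.30) and XX testosterone replicate 4 for ILMN_1236788 (6.63, others 4.79 to 4.91). These are the 3 arrays on which all tested hepatocyte markers were detected. For ILMN_1236788 XY-Sry estradiol replicate 1 was at 5.09 (others 4.65 to 4.75). Igfbp3 was at 6.93 on XY-Sry blank replicate 2 (others 8.40 to 8.66) and Igfbp4 probe ILMN_1258988 at 13.18 on XY-Sry blank replicate 1 (others 12.82 to 12.85). Igfbp6 was at 12.18 on XXSry testosterone replicate 5 (others 11.42 to 11.63) and at 10.33 on XY- estradiol replicate 3 (others 11.92 to 12.57).

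The liver response of Igfbp2 probe ILMN_1236788 to testosterone differed between the ovary and testis lines by -1.41, by the interaction term of the fit.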

How the results depend on the processing

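Of the calls in the report, the liver Igfbp2 (ILMN_1236788) interaction with testosterone and the fat Igfbp6 rise under estradiol were kept in every alternative run. Among values called in the main fit or in the alternative, the only one that changed direction was liver Igfbp7 under testosterone (0.02). It was -0.26 with slide as a block. Changes of sign in values called in neither fit were not counted. Member probes called for liver testosterone were 1, and 2 with median centring, 0 without the filter, 2 with the slide block and 3 with array weights. For liver estradiol they were 1, and 2 with median centring, 3 with the slide block, 3 with array weights and 2 without the doubted arrays. Liver gonad type went from 0 to 1 with the slide block, liver testosterone by gonad type from 1 to 2 with the slide block or array weights, and liver estradiol by gonad type from 0 to 1 with array weights. Fat testosterone went from 1 to 0 with median centring or the slide block. Fat gonad type went from 2 to 1 without the filter and to 0 with marker covariates, and to 3 with no background correction, the slide block, the relabelled array or the 3 arrays with hepatocyte transcripts left out. Fat estradiol by gonad type went from 0 to 2 with array weights and to 1 without those 3 arrays, through an Igfbp2 probe that then passes the filter only by its high group. Leaving out each array in turn gave 0 to 2 for liver testosterone, 1 to 2 for liver estradiol, 1 to 2 for liver testosterone by gonad type and 1 to 3 for fat gonad type. The cause of these changes was not tested. Over all probes, median centring moved the calls from 2162 to 1370 for liver testosterone, 772 to 1392 for liver estradiol, 695 to 306 for fat testosterone and 3003 to 1936 for fat estradiol, and the covariates took fat gonad type from 1075 to 0. Arrays were matched by slide alone, since the labels give no replicate numbers. Igfbp1 in liver and Igfbp2 in fat lie near background, which limits their differences.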
